A study of Mus musculus with 6 samples.

Results

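The genes of leukemia inhibitory factor (LIF) signalling were examined in undifferentiated mouse embryonic stem cells (mESCs) as 10 genes: the ligand *Lif*, the receptors *Lifr*, *Il6st* and *Osmr*, the kinases *Jak1* and *Jak2*, the transcription factor *Stat3*, the feedback inhibitor *Socs2*, and *Socs3* and *Pim1* as target genes of STAT3. They were chosen by name. All 10 were found among the 15276 genes named in the deposited probe sets (groups of short oligonucleotides that read 1 transcript), with 31 probe sets among 33142. WT and *Alkbh1-/-* mESCs of the C57BL/6 strain were compared on 3 arrays each, at passage 8 and day 0 of differentiation. *Alkbh1* encodes a dioxygenase of the AlkB family. Both genotypes came from embryos of the same litters, and both were kept untreated in medium with LIF on irradiated mouse embryonic fibroblasts.

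LIF is a secreted cytokine that keeps cultured mESCs undifferentiated. It binds the LIF receptor, which pairs with gp130, the product of *Il6st*; JAK kinases bound to the pair are then activated and phosphorylate STAT3, which enters the nucleus and switches on its target genes. *Osmr* encodes the receptor chain that pairs with gp130 for oncostatin M. SOCS3 is a target of STAT3 that binds gp130 and the JAK kinases and shuts the signal down, and SOCS2 is a related inhibitor best known for damping growth hormone signalling. *Pim1* encodes a serine/threonine kinase that favors survival and growth.

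Only means were analysed here, of 2 kinds, and no single-array values, so that no value below has a standard deviation, a confidence interval or a test. The first kind is the authors' mean log2 intensity over all 6 arrays, given for every probe set and pooling both genotypes. The second is the authors' geometric mean intensity in each genotype, given only for probe sets that a service company had listed by its own test. Genotype means could be assigned to 4232 probe sets, among them 3 of *Socs2* and 0 of the other 9 genes. For those 9 genes nothing is said here about a difference between the genotypes, and being without genotype means does not show that they were alike.

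Intensities were checked against the labels before the pathway was examined. At the brighter probe set of the targeted gene, 1434660_at, the authors' geometric mean intensity of *Alkbh1* was 761.4 in WT and 25.7 in *Alkbh1-/-* mESCs. At the gene's other probe set, 1438681_at, it was 120.0 and 34.6. *Alkbh1* was thus lower in *Alkbh1-/-* mESCs at both. All 10 markers fixed for undifferentiated mESCs, such as *Pou5f1*, *Sox2* and *Nanog*, had a mean log2 intensity over all arrays between 10.05 and 14.49 at their brightest probe set, above at least 89.9% of all probe sets. Of 24 fibroblast markers, 13 were in the upper quartile at their brightest probe set and 3 were below the median. On the same reading, 35.5% of all 15276 named genes were in that quartile, and 48.6% of those with 2 to 5 probe sets. In these bulk samples, fewer cells of a type and less RNA per cell cannot be told apart.

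Among the 10 genes, a STAT-type motif was found in the promoter of *Socs3*, and that sequence is shown because it was the window with a match. Promoter windows of 300 bases, 250 before and 50 after a start site, were read from RefSeq (GRCm38.p6). The motif searched, TTCNNNGAA, in which N is any base, is the general STAT recognition pattern and reads the same on both strands. The *Socs3* window lies at chr11:117969317-117969616 on the minus strand, and the match, TTCTTAGAA, is in capitals. Its first base is 154 bases before the start site.
Socs3 promoter: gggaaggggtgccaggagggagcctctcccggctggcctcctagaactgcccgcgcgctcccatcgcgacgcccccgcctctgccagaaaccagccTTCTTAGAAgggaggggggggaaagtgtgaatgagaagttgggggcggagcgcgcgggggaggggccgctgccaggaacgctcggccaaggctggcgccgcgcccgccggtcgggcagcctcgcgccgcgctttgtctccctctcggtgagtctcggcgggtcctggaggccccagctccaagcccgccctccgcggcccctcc

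Windows were available for 9 of the 10 genes, *Socs2* being the one without, and *Socs3* was the gene with a match. Of their 11 windows, 1 held the motif, a share of 9.1%. Over all 32851 windows it was held by 2726, or 8.3%. The presence of these letters is a description of the window and does not show that STAT3 binds there. Among other target genes of STAT3, listed by name, 6 of 20 windows held the motif (30.0%). The 20 windows came from 12 of the 15 listed genes. The 6 with the motif belonged to 4 genes, *Bcl6*, *Icam1*, *Sbno2* and *Sgk1*, so they are not 6 separate genes. Among other genes of the pathway, *Cish*, which encodes a further SOCS-family inhibitor, and *Gab1*, an adaptor, had a window with a match, 3 of 37 windows in all.

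Signal over all 6 arrays was present for most of the pathway. On the log2 scale, the mean of all probe sets on the table ran from 3.22 to 14.67, with a median of 6.31 and quartiles of 4.80 and 8.38. Read by its brightest probe set, a gene lay above the upper quartile in 7 of 10 cases, between the median and that quartile in 2 (*Lif* and *Osmr*) and below the median in 1 (*Jak2*). Taking the brightest of several probe sets raises such a count, and 48.6% of the 6984 named genes with 2 to 5 probe sets, as the 10 genes have, were above that quartile on the same reading. With the median over each gene's probe sets, the median level of the 10 genes was 7.09 in place of 9.33. The brightness of a probe set depends on its oligonucleotides as well as on its transcript. The values therefore place each probe set within the range of the deposited probe sets and do not order the genes by transcript number. Those probe sets had been filtered in a way not stated, so ranks within the whole array are not known.

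*Lif* had 2 probe sets, whose mean log2 intensities over all arrays were 6.44 (1421207_at) and 4.42 (1450160_at). The brighter was above 51.8% of all probe sets and the dimmer was in the lowest quartile. Signal of the ligand was thus in the middle of the range of the deposited probe sets or lower, in cultures that received LIF with the medium.

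The receptor chains differed in where they stood. For *Lifr*, the probe set 1454984_at had a mean log2 intensity of 9.41 over all arrays, above 85.1% of all probe sets. Its other probe sets, 1450207_at and 1425107_a_at, were at 5.53 and 5.35, below the median. For *Il6st*, 1452843_at was at 9.24, above 83.8% of all probe sets. The other 3 *Il6st* probe sets lay between 5.44 and 7.31 on the log2 scale. Both chains of the LIF receptor were therefore read as bright by 1 of their probe sets and as middling or dim by the others, and at these brightest probe sets the table carries an older provisional symbol, so that the gene was found through its identifier. *Osmr* had 2 probe sets, at 6.68 (1418674_at) and 4.23 (1418675_at), of which the brighter was above 54.9% of all probe sets.

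The kinases gave readings far apart. *Jak1*, a kinase bound to gp130, had mean log2 intensities over all arrays of 9.10 (1433805_at), 7.88 (1433803_at) and 6.61 (1433804_at). All were above the median of the deposited probe sets. *Jak2*, which serves many cytokine receptors, had 5.78 (1421066_at) and 4.87 (1421065_at), both below that median. *Stat3* had 4 probe sets. Its brightest, 1426587_a_at, was at 9.55 on the log2 scale, above 86.1% of all probe sets, and 1460700_at was at 9.11. The remaining ones, 1459961_a_at and 1424272_at, were at 6.78 and 5.09.

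The target genes and the inhibitor were read as bright by at least 1 probe set each. Every probe set of *Socs3* was in the upper quartile, with mean log2 intensities over all arrays of 10.78 (1455899_x_at), 9.43 (1456212_x_at) and 8.89 (1416576_at). The suffix x marks probe sets with oligonucleotides that can bind unrelated transcripts, and the *Socs3* probe set without it was the dimmest. Every probe set of *Pim1* was in the upper quartile as well, at 10.63 (1435458_at), 9.56 (1423006_at) and 8.93 (1435872_at). *Socs2* had 5 probe sets with the widest spread of the 10 genes, 7.64 on the log2 scale. The brightest, 1449109_at, was at 11.49, above 96.2% of all probe sets, and 1418507_s_at was at 10.63. The other 3 were at 7.05 (1438470_at), 5.83 (1442586_at) and 3.85 (1441476_at).

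**Figure D1:**
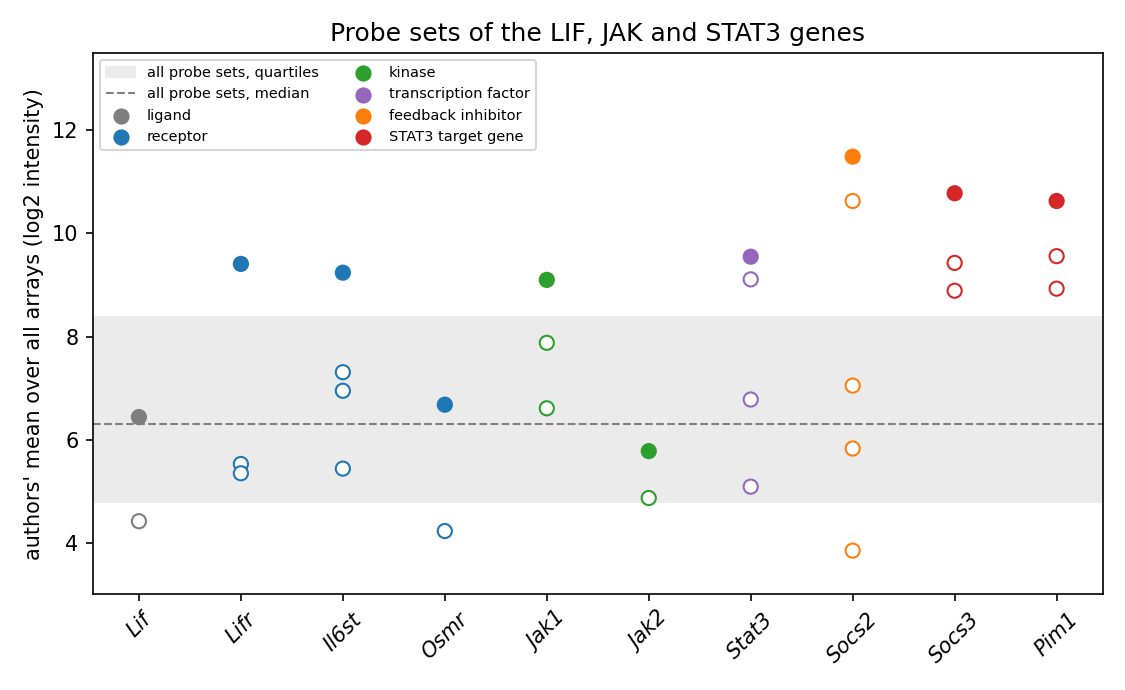
The authors' mean log2 intensity over all 6 arrays (vertical axis) is plotted for each of the 31 probe sets of the 10 genes (horizontal axis, colored by role); filled points are the brightest probe set of a gene, the band spans the quartiles of all probe sets (4.80 to 8.38) and the dashed line is their median (6.31). All probe sets of *Socs3* and *Pim1* lie above the band, and both of *Jak2* lie below the median.

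*Socs2* had a lower mean in *Alkbh1-/-* than in WT mESCs at each of the 3 probe sets with genotype means. At 1438470_at, the authors' geometric mean intensity was 180.3 in WT and 97.1 in *Alkbh1-/-* mESCs, a log2 difference of −0.89 and a 1.86-fold lower mean. At 1418507_s_at it was 1831.8 in WT and 1377.0 in *Alkbh1-/-* mESCs, a log2 difference of −0.41 and a 1.33-fold lower mean. At 1442586_at it was 66.2 in WT and 48.8 in *Alkbh1-/-* mESCs, a log2 difference of −0.44 and a 1.35-fold lower mean. The probe sets are assigned to the same gene and are not replicates, and the suffix s marks oligonucleotides shared by more than 1 transcript. Neither 1449109_at, the brightest probe set of *Socs2* and the one that gives its level, nor 1441476_at, the dimmest, had genotype means.

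**Figure D2:**
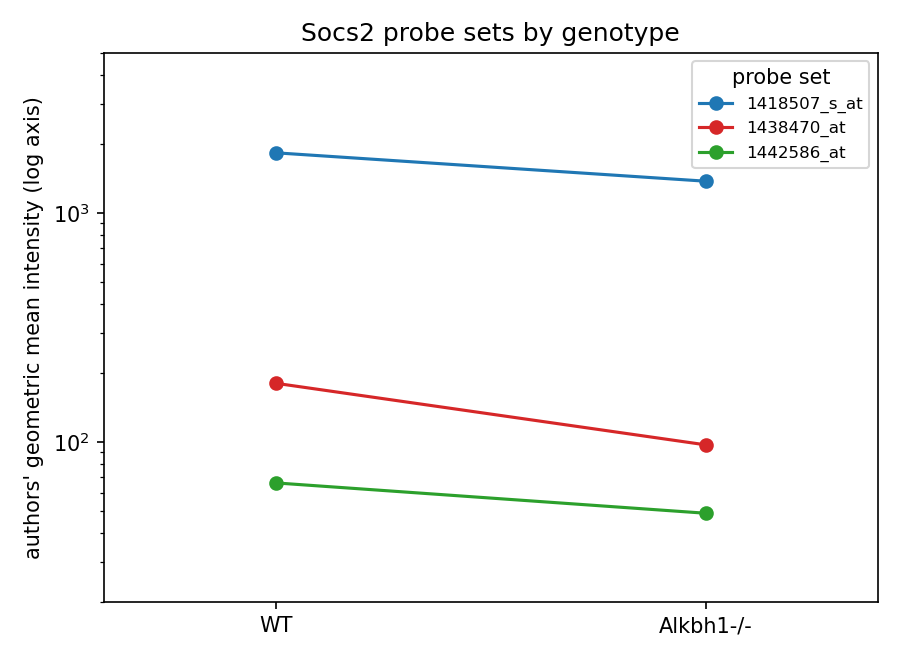
The authors' geometric mean intensity (vertical log axis) is plotted in WT and *Alkbh1-/-* mESCs for the 3 *Socs2* probe sets with genotype means, 1 line each, with no error bars because only means were analysed. All 3 lines slope down from WT to *Alkbh1-/-*, most steeply for 1438470_at (180.3 to 97.1).

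The size of these differences was set beside that of all probe sets with genotype means, of which 51.5% had the higher and 48.5% the lower mean in *Alkbh1-/-* mESCs. A mean over 1.5-fold lower in *Alkbh1-/-* mESCs was found at 1 of the 3 *Socs2* probe sets, and at 1284 (30.3%) of the 4232 probe sets with genotype means. A mean over 1.5-fold higher was found at 0 of the 3, and at 1389 (32.8%) of the 4232. Because the company listed probe sets by its own test and filter, the smallest log2 difference among the 4232 was 0.37 in size and the median size 0.67. The difference at 1438470_at was exceeded in size by 25.7% of them, that at 1442586_at by 94.8% and that at 1418507_s_at by 98.0%. That a listed probe set differs between the genotypes was thus a condition for its listing and is no separate result.

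Those fibroblast marker transcripts that had genotype means were lower in *Alkbh1-/-* mESCs as well. Which cells of the cultures they came from was not tested. Of 24 fibroblast markers fixed by name, 13 had genotype means at 19 probe sets, and all 19 were lower in *Alkbh1-/-* mESCs, with log2 differences from −1.11 to −0.52 and a median of −0.88, beside 48.5% lower over all 4232 probe sets. Summed over the brightest such probe set of each gene, their intensity was 12754 in WT and 6826 in *Alkbh1-/-* mESCs. The other 11 markers had no genotype means and are not in that sum. Among them were *Thbs1* and *Fn1*, with mean log2 intensities over all arrays of 12.09 and 12.06 at their brightest probe sets. None of the 24 was missing from the table, and the least bright was at 5.08 on the log2 scale over all arrays. The part of fibroblast RNA in the *Socs2* difference was not tested. Of the 10 markers of undifferentiated mESCs, 5 had genotype means at 10 probe sets, 8 higher and 2 lower in *Alkbh1-/-* mESCs, beside 51.5% higher over all 4232.

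Other genes of the pathway were taken from 33 listed genes, of which 32 were on the table and 6 had genotype means at 8 probe sets. Means over 1.5-fold higher in *Alkbh1-/-* mESCs were found at 4 of the 8 (32.8% over all 4232), and the other 4 were within 1.5-fold. In direction, 6 of the 8 were higher and 2 lower, with log2 differences from −0.56 to 1.92, beside 51.5% higher and 48.5% lower over all 4232. *Il6ra*, the receptor chain for interleukin-6 that works through gp130, had the largest difference: 36.6 in WT and 138.5 in *Alkbh1-/-* mESCs at 1452416_at, 3.79-fold higher. That probe set was at a mean log2 of 6.15 over all arrays, above 47.8% of all probe sets, and its WT mean was 5.19 on that scale. The gene's other probe set, 1422270_a_at, had no genotype means.

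Among the STAT genes of that list, *Stat6*, the effector of interleukin-4, was higher in *Alkbh1-/-* mESCs at both of its probe sets with genotype means. Its geometric mean intensity was 306.7 in WT and 489.2 in *Alkbh1-/-* mESCs at 1426353_at (1.60-fold), and 176.7 and 274.4 at 1421708_a_at (1.55-fold). *Stat5a*, an effector of prolactin and growth hormone, was 11.8 in WT and 19.9 in *Alkbh1-/-* mESCs at 1450259_a_at (1.68-fold), and 34.3 and 45.2 at 1421469_a_at (1.32-fold). Both *Stat5a* probe sets lie low among the deposited probe sets. At a mean log2 of 3.94 over all arrays, 1450259_a_at was above 5.0% of all probe sets. Its WT mean of 3.56 was close to the lowest value on the table, 3.22, so that its fold rests on signal near the floor. The probe set 1421469_a_at was above 34.4%. *Pias2*, *Socs5* and *Stat4* were within 1.5-fold. *Pias2*, an inhibitor of the STAT family, was at 1505.4 in WT and 2141.2 in *Alkbh1-/-* mESCs. *Stat4*, the effector of interleukin-12, was at 91.8 and 62.2, and *Socs5*, a further SOCS-family gene, at 284.7 and 206.9.

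Of 15 listed target genes of STAT3 other than *Socs3* and *Pim1*, 5 had genotype means at 6 probe sets. Of these, 3 were higher and 3 lower in *Alkbh1-/-* mESCs, with log2 differences from −1.05 to 0.71. Means over 1.5-fold higher were found at 3 of the 6 (32.8% over all 4232), and over 1.5-fold lower at 2 (30.3%). *Klf4*, a pluripotency factor downstream of STAT3 in mESCs, was higher at both probe sets, with 4628.3 in WT and 7380.1 in *Alkbh1-/-* mESCs at 1417394_at (1.59-fold) and 2953.8 and 4832.1 at 1417395_at (1.64-fold). *Tfcp2l1*, a transcription factor that sustains self-renewal downstream of STAT3, was at 2172.9 in WT and 3287.6 in *Alkbh1-/-* mESCs (1418091_at, 1.51-fold). *Gbx2*, a homeobox gene that STAT3 also activates, was lower, at 294.5 in WT and 141.9 in *Alkbh1-/-* mESCs (1420337_at, 2.08-fold). *Myc* was at 531.8 in WT and 323.8 in *Alkbh1-/-* mESCs (1424942_a_at, 1.64-fold lower). *Sbno2*, a coregulator induced by STAT3, was at 38.0 in WT and 27.6 in *Alkbh1-/-* mESCs at 1458308_at, within 1.5-fold. That was the dimmest probe set of *Sbno2*, and the brighter ones had no genotype means. The split of the 6 probe sets was near that of all 4232 (51.5% higher), and the other 10 listed genes had no genotype means.

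**Figure D3:**
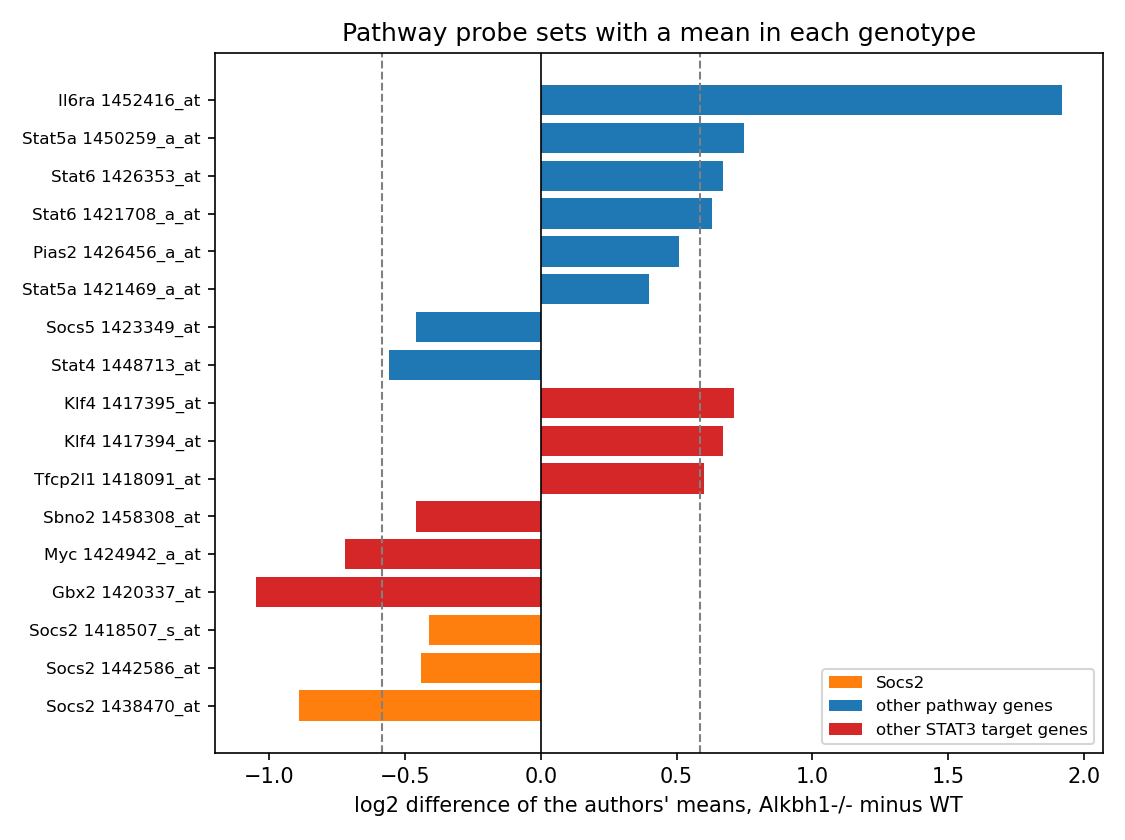
Log2 differences of the authors' genotype means, *Alkbh1-/-* minus WT (horizontal axis), are drawn as bars for the 17 probe sets of *Socs2*, other pathway genes and other STAT3 target genes that have both means; dashed lines mark 1.5-fold in either direction, and no bar has an error. The *Socs2* bars, all of 1 gene, point to lower values. Those of the other lists, which hold several genes, point both ways, from −1.05 for *Gbx2* to 1.92 for *Il6ra*.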

How the data were processed

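Total RNA of 3 WT and 3 *Alkbh1-/-* arrays was measured on Affymetrix GeneChips. Per the labels and the study's methods, the authors normalized all arrays together with RMA (robust microarray analysis); the version was not given in the sources used here. The authors deposited a log2 mean over all arrays for 33142 probe sets, filtered in a way not stated. A service company deposited, for the authors, a geometric mean intensity per genotype for 4326 entries. Per the file headers, 7320 probe sets passed a filter and those with a nominal p under 0.05 were listed. The deposited text states that the class name of the WT column is a mislabelling, and the WT means rest on that correction. The authors' own fold changes, statistics and p-values in both tables were not used.

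Identifiers disagreed between the tables. Entries were therefore joined where the mean of both log2 genotype means lay within 1e-06 of exactly 1 probe set's mean, which assigned 4232 of 4326 entries (97.8%). The largest gap joined was 3.6e-07. Of the entries not joined, 65 had no probe set within 1e-06, the smallest of their gaps being 3.6e-05. The other 29 had several probe sets within 1e-06. The join was tested on simulated data. Probe sets were named by symbol, gene identifier or alias through RefSeq genes of GRCm38.p6, which named 28185 (85.0%). Of the 31 probe sets of the 10 genes, 17 were named by symbol and 14 by gene identifier. A gene's value is its probe set with the highest mean. Differences were computed as log2 of the ratio of the means, with a 1.5-fold threshold. The labels number the arrays within a genotype and do not state whether they were separate cultures. In the sample descriptions, the arrays of a genotype share a name prefix, which differs between the genotypes. Whether more than 1 cell line per genotype was used is not stated, so genotype and cell line cannot be told apart. The number of arrays limits the precision. Genes named are the 10 members with all probe sets, *Alkbh1*, and listed pathway and target genes over 1.5-fold; *Pias2*, *Socs5*, *Stat4* and *Sbno2*, and the genes with a promoter match, were picked once their values were known. One further gene of the pathway list is not reported here and was left out of that list's counts. The members and lists were chosen with earlier results of these data known. Python 3.11.15, pandas 2.3.3, NumPy 2.4.6 and matplotlib 3.10.9 were used.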

Additional observations from a re-analysis of the deposited data

How the results depend on the processing

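Only means were analysed, so no array could be left out, no spread could be estimated and no pseudocount or background setting could be changed. No paired analysis was possible because the tables used here carry no values of single arrays. The brightest *Socs2* probe set has no genotype means, so the brightest of the 3 that have them, 1418507_s_at, stood for the gene; with the mean over the 3, its log2 difference moved from −0.41 to −0.58. Joining the tables by identifier in place of value gave −0.53 at 1418507_s_at and −0.86 at 1442586_at, and turned 1438470_at from −0.89 to 1.59. The same change turned the *Alkbh1* probe set 1438681_at from −1.79 to 0.60 and moved 1434660_at from −4.89 to −1.22. The number of *Socs2* probe sets past the threshold, 1 at 1.5-fold, was 3 at a log2 difference over 0.32, 0 at 2-fold and 0 at a log2 difference over 1.5. The smallest difference among all 4232 probe sets was 0.37 in size, so every one of them passed 0.32 and that count was fixed by the listing. Shares over the 4232 were not computed at the other 2 settings. The median level of the 10 genes was 9.33 with the brightest probe set of each and 7.09 with the median over each gene's probe sets. Naming by gene identifier or accession did not change the levels of the 10 genes or the difference at 1418507_s_at, and was not run for the other values. With tolerances chosen after seeing the data, 3567 entries were joined within 1e-07 and 3895 within 1e-05.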

Other observations

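The 2 tables list overlapping probe sets under exchanged identifiers. Of the 4232 entries joined by value, 8 carried the same identifier in both tables. All 4232 joined probe sets were nevertheless listed somewhere in the class comparison under their own identifier, and 4261 of its 4326 identifiers occur in the larger table. The *Socs2* probe set 1438470_at is an example: its own row of the class comparison gives a log2 difference of 1.59, and the row joined by value gives −0.89.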
